A study of Mus musculus with 10 samples.

Results

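Acetylation of histone H4 (H4Ac) was compared directly between cells carrying MyoD and cells carrying Myf5, as the regions that the authors called in each of the 2 populations. The list from cells with MyoD held 36864 regions and the list from cells with Myf5 held 32041, together 68905 of the 241128 peaks in the 7 lists of the series. All regions of both lists were used, and the list from cells with GFP was left out. The cells were mouse embryonic fibroblasts of the genotype MyoD-/-; Myf5-/-, here called M&M MEFs as in the labels, so neither population made either factor from its own genes. Lentivirus supplied MyoD to one population and Myf5 to the other. The virus was added in growth medium with polybrene at 8 µg/ml, the cells were moved to differentiation medium with insulin and transferrin after 24 h, and they were collected 20 h later. For H4Ac the chromatin was left uncrosslinked and digested by 15 units of micrococcal nuclease over 18 min. Each factor was precipitated from cells that carried it, after 11 min of crosslinking, and the lists of MyoD and Myf5 peaks held 45015 and 93787 peaks.

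Both factors belong to the myogenic basic helix-loop-helix family, whose members bind E-box sequences and commit cells to skeletal muscle. Myf5 appears early in muscle precursors, and MyoD is known as a strong activator of muscle genes that recruits histone acetyltransferases. Acetylation of the H4 tail loosens nucleosome contacts and marks promoters and enhancers in use. Micrococcal nuclease leaves nucleosomes, so a region called from native chromatin is built from protected nucleosomes and not from the factor's own footprint. The files give positions without gene names. The gene and promoter tables used here are of another build, so no gene was assigned, no sequence is printed and the fibroblast identity of the cells was not checked against marker genes.

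There was 1 H4Ac list per population, so no replicate error exists and no p-value is given. A range given after a share is its exact (Clopper-Pearson) 95% binomial interval, which covers counting error only, and neighbouring regions are not independent. Sequencing depth is unknown from the files. In bulk cells, acetylation in fewer cells and less acetylation per cell cannot be told apart, and neither the share of infected cells nor the level of each factor was analysed here. Strength is the authors' maximum coverage divided by the coverage cutoff they set for the region's bin of GC content, and it was ranked within its own list. The cutoffs were not alike: from the lowest of the 5 GC bins to the highest they were 19, 21, 22, 24 and 26 reads with MyoD and 20, 24, 27, 29 and 31 reads with Myf5. Positions are in the mouse build mm9.

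Most H4Ac regions were found with either factor. In cells with MyoD, 26356 regions overlapped a region of the cells with Myf5 by at least 1 bp, and 10508 did not (28.5% of the list, 28.0 to 29.0). In cells with Myf5, 23320 were shared and 8721 were not (27.2%, 26.7 to 27.7). The stretches called in both lists added up to 9.26 Mb, which was 76.4% of the covered length with MyoD, 62.2% of that with Myf5 and 52.2% of their union. The covered lengths were 12.1 Mb with MyoD and 14.9 Mb with Myf5.

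Regions in 1 list only were weak and narrow. With MyoD their median coverage was 1.14 times the cutoff, against 1.57 times for shared regions, and with Myf5 the medians were 1.13 and 1.59 times. Of the regions in the MyoD list only, 32.8% (31.9 to 33.7) had a coverage at the cutoff or 1 read above it, against 10.5% (10.1 to 10.8) of the shared ones. With Myf5 these shares were 34.2% (33.2 to 35.2) and 7.0% (6.68 to 7.34). The median width was 184 bp in the MyoD list only and 313 bp for shared regions of that list. It was 255 bp in the Myf5 list only and 447 bp for shared regions of that list.

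Strong regions were nearly always shared. With each list split by strength into 10 classes, the share in 1 list only fell from 58.8% (57.2 to 60.4) of the weakest class to 0.271% (0.130 to 0.498) of the strongest with MyoD. With Myf5 it fell from 62.7% (61.0 to 64.4) to 0.125% (0.0341 to 0.320). From the fifth to the ninth class the MyoD list had the larger share without a counterpart, for example 15.4% (14.2 to 16.6) against 10.1% (9.04 to 11.1) in the seventh. Of regions with at least 2 times their cutoff, 180 of 8822 were in the MyoD list only (2.04%, 1.76 to 2.36) and 56 of 7633 in the Myf5 list only (0.734%, 0.555 to 0.952). At 3 times the cutoff these were 10 and 2 regions. With both lists held to 32041 regions, 24.1% of the MyoD list and 31.1% of the Myf5 list had no counterpart, so the order of the 2 whole-list shares turned with list length.

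**Figure D1:**
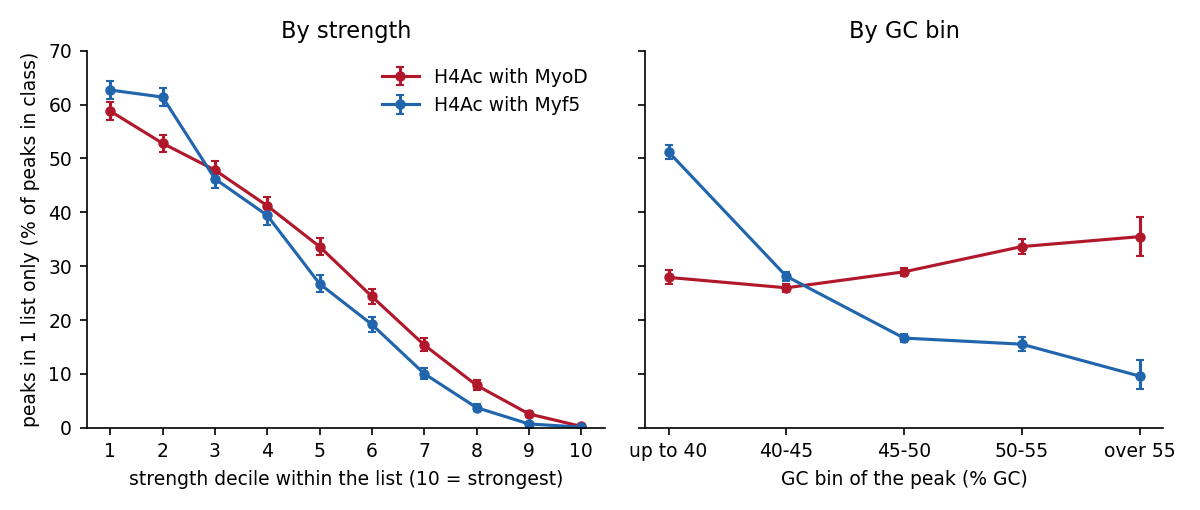
Share of H4Ac regions called in 1 list only (y axis, % of the regions of each class), by strength class within the list (left, 10 is the strongest) and by GC bin (right). Points are shares with exact 95% binomial intervals, red for cells with MyoD and blue for cells with Myf5. Both lists fall to under 1% in the strongest class, and the lists part by GC in both directions, at 27.9% with MyoD and 51.2% with Myf5 in the lowest bin and at 35.5% and 9.61% in the highest.

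Many regions in 1 list only lay beside a region of the other list. Of those with MyoD, 34.7% (33.8 to 35.6) were within 500 bp of a region called with Myf5. Of those with Myf5, 34.6% (33.6 to 35.6) were within 500 bp of a region called with MyoD. More than 5000 bp from any region of the other list lay 4886 regions called with MyoD only and 3834 called with Myf5 only. Counting neighbours within 500 bp as shared left 18.6% of the MyoD list and 17.8% of the Myf5 list without a counterpart.

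The 2 sets of unshared regions differed in GC content. Of the regions called with Myf5 only, 36.2% (35.2 to 37.2) had a GC content of 40% or lower, compared with 12.9% (12.2 to 13.5) of those called with MyoD only. Shared regions had the same composition seen from either list, with 13.2% and 12.9% in that bin. In the Myf5 list the share without a counterpart fell from 51.2% (50.0 to 52.5) in the lowest GC bin to 9.61% (7.15 to 12.6) above 55% GC. In the MyoD list it was 27.9% (26.7 to 29.2) in the lowest bin and 35.5% (31.9 to 39.2) in the highest. The authors' cutoffs moved with GC in the same way: the Myf5 cutoff was 1 read above the MyoD cutoff in the lowest bin and 5 reads above it in each of the 3 highest bins. The part of the cutoffs in the GC difference was not tested. Among regions with at least 1.5 times their cutoff, the gap in the lowest bin was 30.7 percentage points, against 23.3 for all.

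Shared regions were narrower in cells with MyoD. Each MyoD-cell region was paired with the Myf5-cell region it overlapped longest, which gave 26356 pairs. The median ratio of widths, MyoD over Myf5, was 0.733 (quartiles 0.453 and 0.960), and in 80.6% (80.1 to 81.1) of the pairs the region with MyoD was the narrower. Many regions that were whole with Myf5 were split with MyoD. A total of 3146 Myf5-cell regions, 13.5% of those shared, overlapped 2 or more MyoD-cell regions and up to 6, while 574 MyoD-cell regions (2.18%) overlapped 2 or more Myf5-cell regions and up to 3. The median gap between the pieces was 41 bp, shorter than the DNA wound around a nucleosome. Among the 19252 pairs in which each region met exactly 1 of the other list, the median ratio was 0.848, with median widths of 323 bp with MyoD and 411 bp with Myf5. In these pairs the ratio rose with GC content, from 0.739 in the lowest bin to 0.946 in the highest.

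H4Ac strength followed a similar order in the 2 populations. Ranks were percentiles of a whole list on a scale of 0 to 100, and tied regions shared their mean rank, so that regions exactly at the cutoff ranked at 4.47 with MyoD and 3.85 with Myf5. Across the 26356 pairs the Spearman correlation of the ranks was 0.589, and across the pairs of exactly 1 region each it was 0.70. These are descriptions across regions, which share their library and are not replicates. The 5 strongest shared regions had coverages of 464 to 643 with MyoD and 371 to 594 with Myf5. The first, at chr8:19784600-19785377, reached 643 with MyoD and 575 with Myf5, and the second, at chr11:3052164-3059203, reached 498 and 594. Both overlapped a peak of the mock precipitations, and the one on chromosome 11 had control coverages of 153 and 163, against a list median of 4. The one on chromosome 8 also met a MyoD peak with a coverage of 78. The other 3 had control coverages of 2 to 6. They lay at chr8:87549189-87549406 (546 with MyoD and 544 with Myf5), at chr1:10028010-10028271 (516 and 448) and at chr2:52600978-52601469 (464 and 371). Of these 3, only the chromosome 2 region met a factor peak, a Myf5 peak with a coverage of 43.

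Where MyoD bound strongly, shared regions ranked higher with MyoD than with Myf5. At pairs with a MyoD peak from the strongest of 3 equal classes (coverage of 68 or more), the median rank was 72.6 with MyoD and 65.8 with Myf5. The median difference within a pair was 3.35 points over 4186 pairs, and 60.9% (59.4 to 62.4) ranked higher with MyoD. At 12250 pairs with no peak of either factor the median ranks were 55.3 and 62.4, the median difference was -2.92 points and 42.6% (41.8 to 43.5) ranked higher with MyoD. Pairs with a Myf5 peak and no MyoD peak lay between these, at -0.22 points over 5435 pairs. By MyoD strength the median differences were -0.50, 0.33 and 3.35 points from the weakest to the strongest class of MyoD peaks. By Myf5 strength they were -0.07, -0.20 and 1.92 points, so the shift was toward MyoD cells also at the strongest Myf5 peaks. The 2 series share sites, since 7750 of the 7912 shared MyoD-cell regions at a MyoD peak also met a Myf5 peak.

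The rank difference also moved with GC content and with the splitting of regions. Its median was -9.83 points in the lowest GC bin and 7.33 points in the highest. Within each GC bin, pairs with a strong MyoD peak still stood above pairs with no factor peak: -0.62 against -11.8 points up to 40% GC, 1.94 against -4.86 from 40 to 45%, 4.79 against 0.34 from 45 to 50%, 4.21 against 2.27 from 50 to 55%, and 12.3 against 6.02 above 55%. A rank shift of 25 points or more was found in 3186 pairs toward MyoD (12.1%) and in 4526 toward Myf5 (17.2%). When overlapping regions were joined and the strongest region of each list was taken, an alternative added after seeing the data, the order of the counts turned. Of 22741 joined regions, 3096 (13.6%) then ranked higher with MyoD by 25 points or more and 2194 (9.65%) higher with Myf5. At strong MyoD peaks the joined regions had a median difference of 5.73 points, with 744 of 3627 shifted toward MyoD and 168 toward Myf5. At joined regions with no factor peak the median was -0.60 points, with 1194 of 10698 shifted toward MyoD and 1360 toward Myf5.

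**Figure D2:**
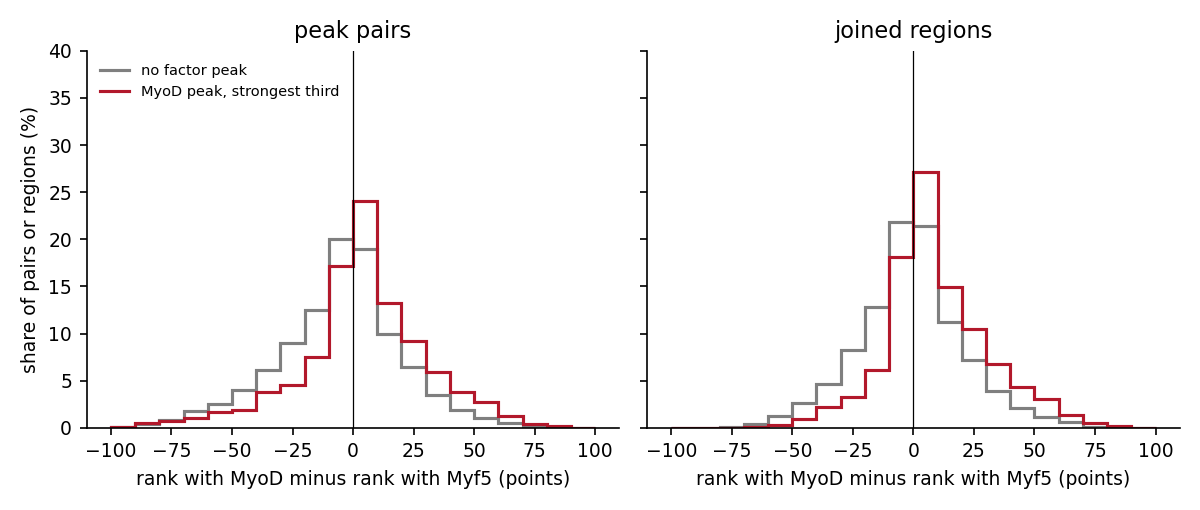
Distribution of the H4Ac rank with MyoD minus the rank with Myf5 (x axis, points of 100) as a share of pairs or regions (y axis, %), in steps of 10 points. The left panel has peak pairs and the right panel joined regions, grey for no factor peak and red for a MyoD peak of the strongest of 3 classes. The red outline lies to the right of the grey one in both panels (medians 3.35 and -2.92 points for pairs, 5.73 and -0.60 for joined regions), and the long left tail of the pairs is shorter in the joined regions.

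The 4 pairs with the largest shift toward MyoD carried both factors, and the fifth place was tied. The largest, 90.9 points, was at chr8:108008111-108009015. Its factor coverages were 31 for MyoD, a weak peak, and 85 for Myf5. Its H4Ac coverage was 86 with MyoD, and it was paired with a Myf5-cell region at its cutoff of 27 reads. A second Myf5-cell region inside it ranked at 73.6, so this shift rests on which region it was paired with. The next 3 were pairs of exactly 1 region each, and in all 3 the Myf5-cell region had a coverage of 27, equal to its cutoff. On chromosome 1 at 185729473 to 185730102 the H4Ac coverage with MyoD was 77, and the factor coverages were 167 for MyoD and 503 for Myf5. On chromosome 9 at 13630908 to 13631423 it was 62, with factor coverages of 77 and 133, and at chr6:108478233-108478757 it was 61, with 267 and 522. The fifth, at chr10:59740465-59740779, reached 58 with MyoD beside 29, again the cutoff, with Myf5, and its factor peaks were weak at 34 and 59. A pair at chr11:6525846-6526030 had the same shift of 83.1 points, with coverages of 58 and 27, no MyoD peak and a Myf5 peak of 37.

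The 5 largest shifts toward Myf5 were all pieces of split regions. On chromosome 1, for example, a Myf5-cell region at 78053937 to 78055448 with a coverage of 157 overlapped 3 MyoD-cell regions, and the one paired with it was 88 bp wide with a coverage of 19. The strongest of the 3 ranked at 99.2, beside 99.6 with Myf5, so the shift of -95.1 points was not present in the joined region. In the other 4 the strongest MyoD-cell region ranked at 90.2 to 98.7. Among pairs of exactly 1 region each, chosen after these values were seen, the largest shifts toward Myf5 lay at chr1:163062265-163062361 (62 reads in Myf5 cells and 19 in MyoD cells), at chr6:18220989-18221111 (56 and 19) and at chr6:129095258-129095361 (51 and 19). These 3 were in the bin of at most 40% GC, and the one on chromosome 1 met a Myf5 peak with a coverage of 28. The next 2, at chr2:12239505-12239703 (59 and 21) and at chr7:113380598-113380724 (57 and 21), were in the bin of 40 to 45% GC. The one on chromosome 2 carried both factors, with 66 for MyoD and 114 for Myf5, and the one on chromosome 7 carried none.

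Regions called with MyoD only lay at factor peaks far more often than regions called with Myf5 only. A MyoD peak overlapped 36.5% (35.5 to 37.4) of the regions called with MyoD only and 14.0% (13.3 to 14.8) of those called with Myf5 only. For a Myf5 peak the shares were 52.5% (51.5 to 53.4) and 27.6% (26.7 to 28.6). Most of this contrast lay at sites of both factors, with 35.8% (34.9 to 36.7) and 13.3% (12.6 to 14.1). A Myf5 peak without a MyoD peak was at 16.7% (15.9 to 17.4) and 14.3% (13.6 to 15.1). At 1.5 times the cutoff or more, the latter shares were 15.3% (13.3 to 17.5) and 17.1% (14.2 to 20.3), with overlapping intervals. In the whole lists 31.9% of regions with MyoD and 27.2% of regions with Myf5 lay at a MyoD peak, and 50.3% and 45.5% at a Myf5 peak. Neither factor was called at 46.9% (45.9 to 47.8) of the regions with MyoD only and at 71.7% (70.7 to 72.6) of those with Myf5 only. The factor peaks found there also differed in strength. The median MyoD coverage was 93 at regions with MyoD only, 66 at shared regions and 53 at regions with Myf5 only, and the median Myf5 coverage was 130, 82 and 70.

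The contrast held within classes of H4Ac strength. Regions were put into 4 classes of coverage over the cutoff of their own list, so a class does not mean equal coverage in the 2 lists. In the weakest class, which begins at the cutoff, a MyoD peak overlapped 31.8% (30.7 to 32.9) of those called with MyoD only and 19.9% (19.0 to 20.9) of the shared ones of that list. In the weakest class of the Myf5 list the order was the other way, with 13.7% (12.8 to 14.5) of those called with Myf5 only and 30.6% (29.4 to 31.8) of the shared ones. From 1.5 to 2 times the cutoff the shares were 52.6% (49.5 to 55.8) and 31.7% (30.5 to 32.9) in the MyoD list, and 15.6% (12.7 to 18.9) and 30.7% (29.5 to 32.0) in the Myf5 list. At 2 times or more, 123 of 180 regions with MyoD only (68.3%, 61.0 to 75.1) and 12 of 56 with Myf5 only (21.4%, 11.6 to 34.4) lay at a MyoD peak. The share thus rose with H4Ac strength in the MyoD-only set. It also rose in the shared regions of the MyoD list, from 19.9% in the weakest class to 39.9% (38.9 to 41.0) in the strongest. In the Myf5-only set the intervals of the 4 strength classes overlapped.

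**Figure D3:**
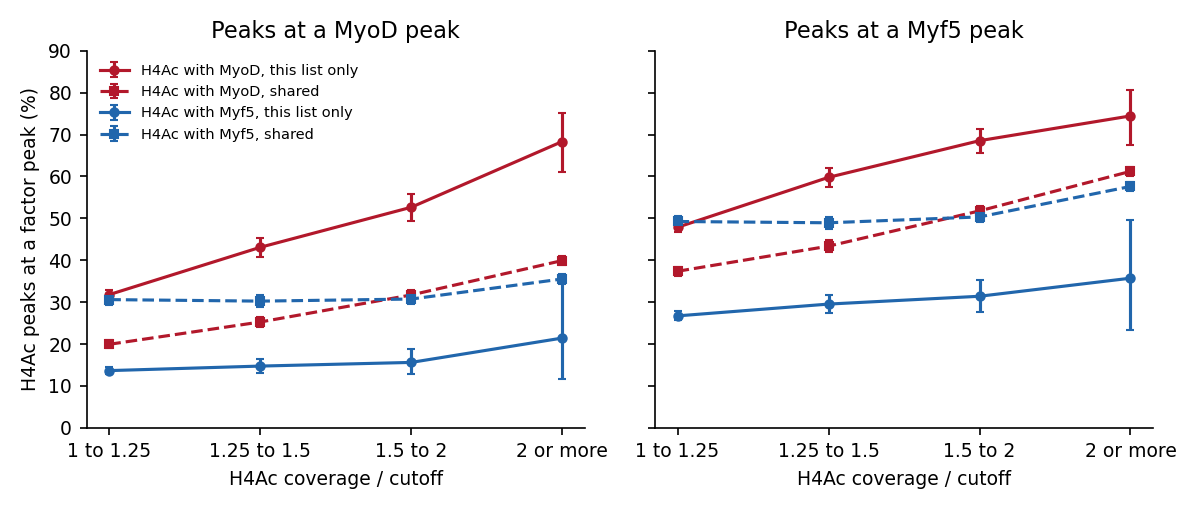
Share of H4Ac regions at a MyoD peak (left) or a Myf5 peak (right) (y axis, %), by H4Ac coverage divided by the cutoff (x axis). Solid lines are regions in 1 list only and broken lines shared regions, red from the MyoD list and blue from the Myf5 list, with exact 95% binomial intervals. The solid red line is the highest in the 3 stronger classes and the solid blue line the lowest throughout, at 68.3% and 21.4% in the strongest class of the left panel.

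The contrast was also present in 4 of the 5 GC bins, with intervals that did not overlap. In the lowest GC bin a MyoD peak overlapped 25.9% (23.6 to 28.3) of the regions with MyoD only and 8.68% (7.72 to 9.72) of those with Myf5 only. From 45 to 50% GC the shares were 37.8% (36.3 to 39.3) and 20.0% (18.2 to 22.0). Above 55% GC, with 47 regions called with Myf5 only, they were 40.9% (34.7 to 47.3) and 38.3% (24.5 to 53.6), a difference not detectable at this number. Weighted to the pooled GC composition of both lists, the shares at a MyoD peak were 36.0% and 16.9%, and those at a Myf5 peak 51.5% and 33.2%. With distance from the other list the 2 sets moved apart. Among regions within 500 bp of the other list a MyoD peak overlapped 32.9% (31.3 to 34.4) with MyoD only and 18.4% (17.0 to 19.8) with Myf5 only. Among those more than 5000 bp away it overlapped 40.3% (38.9 to 41.7) and 11.9% (10.9 to 13.0).

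Seen from the factor peaks, H4Ac in both populations and H4Ac in cells with MyoD only became more frequent with stronger binding. H4Ac in cells with Myf5 only did not. Of all MyoD peaks, 2414 (5.36%) had H4Ac in cells with MyoD only and 829 (1.84%) in cells with Myf5 only. Another 5950 (13.2%) had it in both. From the weakest to the strongest of 10 classes of MyoD peaks, the share with H4Ac in cells with MyoD only rose from 2.46% (2.03 to 2.95) to 15.3% (14.3 to 16.4). The share with H4Ac in cells with Myf5 only was 2.15% (1.75 to 2.62) and 1.40% (1.08 to 1.78) in these classes. Among the 1000 strongest MyoD peaks, 193 had H4Ac with MyoD only, 9 with Myf5 only and 308 in both.

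The same held at the peaks of Myf5 itself, but many of these are the same sites. Of the 3832 H4Ac regions called with MyoD only at a MyoD peak, 3763 also met a Myf5 peak. The results from the 2 factor lists are thus not independent. Of all Myf5 peaks, 3228 (3.44%) had H4Ac in cells with MyoD only and 1653 (1.76%) in cells with Myf5 only, although Myf5 binding was measured in the latter cells. The share with MyoD only rose from 1.39% (1.17 to 1.64) in the weakest to 11.0% (10.4 to 11.7) in the strongest of 10 classes. The share with Myf5 only was 1.58% (1.35 to 1.85) and 1.64% (1.39 to 1.91). The share with H4Ac in both populations rose from 5.81% (5.35 to 6.30) to 19.9% (19.1 to 20.7). Among the 1000 strongest Myf5 peaks, 196 had H4Ac with MyoD only and 10 with Myf5 only. In the 3 weakest classes of Myf5 peaks there were slightly more with Myf5 only than with MyoD only, for example 154 and 135 in the weakest, within the counting intervals. With H4Ac lists of equal length, the strongest class of MyoD peaks had 13.2% with MyoD only and 1.97% with Myf5 only, and the strongest class of Myf5 peaks 9.26% and 2.19%.

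**Figure D4:**
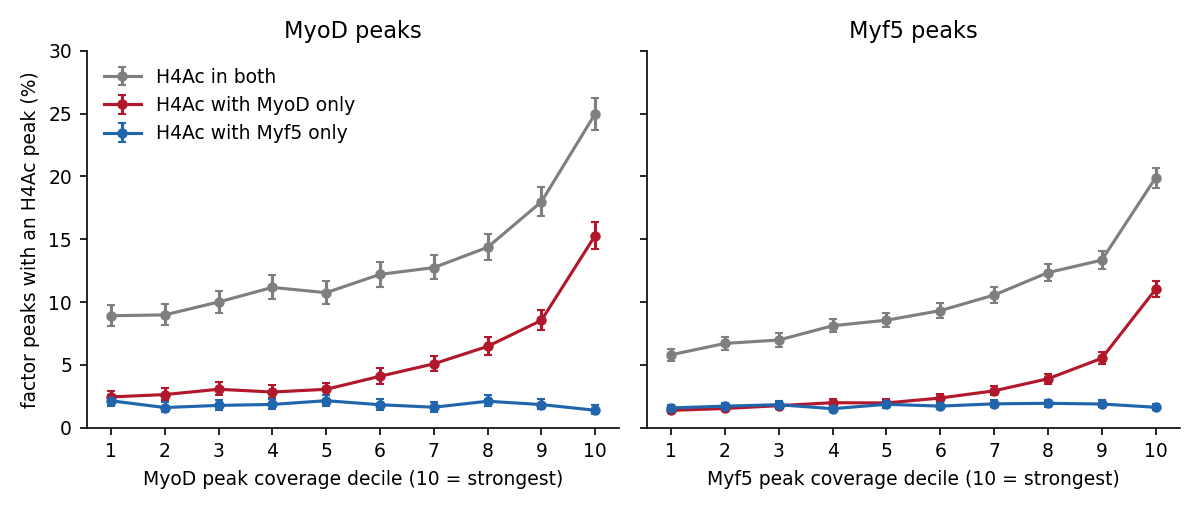
Share of MyoD peaks (left) and Myf5 peaks (right) that overlap an H4Ac region (y axis, %), by class of the factor's own coverage (x axis, 10 is the strongest). Grey is H4Ac in both populations, red in cells with MyoD only and blue in cells with Myf5 only, with exact 95% binomial intervals. Red rises to 15.3% and 11.0% in the strongest classes while blue stays at 1.40% to 2.16% on the left and 1.52% to 1.95% on the right.

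This rise was also present within GC bins, but at MyoD peaks of the highest bin the intervals overlapped. At MyoD peaks of at most 40% GC, H4Ac with MyoD only went from 1.13% (0.762 to 1.61) in the weakest of 3 classes to 7.84% (6.70 to 9.11) in the strongest, and with Myf5 only from 1.95% (1.46 to 2.56) to 2.50% (1.86 to 3.28). From 45 to 50% GC the shares with MyoD only were 3.52% (3.03 to 4.07) and 10.7% (9.87 to 11.6), and with Myf5 only 1.71% (1.37 to 2.11) and 1.63% (1.30 to 2.01). In the highest GC bin the shares with MyoD only were 4.41% (2.30 to 7.58) of 272 peaks and 8.83% (6.29 to 12.0) of 419. In the lowest GC bin, weak MyoD peaks thus had H4Ac with Myf5 only at 52 sites and with MyoD only at 30.

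H4Ac called with MyoD only was the more frequent of the 2 unshared kinds whichever factor ranked higher at a site. MyoD peaks were paired with the Myf5 peak they overlapped longest, and their coverage ranks were compared. The 2 factors were precipitated with different antibodies from different cells, so a higher rank does not measure which factor bound more. Where the Myf5 rank was higher by over 25 points, 141 of 3555 sites had H4Ac with MyoD only (3.97%, 3.35 to 4.66) and 57 with Myf5 only (1.60%, 1.22 to 2.07). Where the MyoD rank was higher by over 25 points, 162 of 3298 had it with MyoD only (4.91%, 4.20 to 5.71) and 48 with Myf5 only (1.46%, 1.08 to 1.93). In these groups the intervals overlapped for both kinds of H4Ac region. With a difference of 5 to 25 points, H4Ac with MyoD only was at 3.87% (3.51 to 4.25) of 10789 sites where Myf5 ranked higher and at 5.76% (5.35 to 6.19) of 12291 sites where MyoD ranked higher, and these intervals did not overlap. H4Ac with Myf5 only was at 2.11% (1.85 to 2.40) and 1.99% (1.75 to 2.26) of them.

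The 5 to 25 point groups parted further among strong sites, those at or above the median of the mean of both ranks. There the median of that mean was alike, at 68.7 where Myf5 ranked higher and 68.8 where MyoD ranked higher. H4Ac with MyoD only was at 4.66% (4.09 to 5.28) and 8.19% (7.50 to 8.92) of these sites, and H4Ac in both populations at 10.3% (9.49 to 11.2) and 20.7% (19.7 to 21.8). H4Ac with Myf5 only was at 2.23% (1.84 to 2.68) and 1.84% (1.51 to 2.22), with overlapping intervals. Strong sites with ranks over 25 points apart did not part in this way, at median mean ranks of 57.4 and 57.0. There H4Ac with MyoD only was at 6.63% (5.19 to 8.31) where Myf5 ranked higher and 7.76% (5.98 to 9.88) where MyoD did. H4Ac in both populations was at 15.3% (13.1 to 17.6) and 18.2% (15.6 to 21.1) of them. H4Ac with Myf5 only was less frequent where Myf5 ranked higher, also with overlapping intervals. Over all sites, those with ranks within 5 points of each other had H4Ac with MyoD only at 8.10% (7.65 to 8.56) and with Myf5 only at 1.70% (1.49 to 1.93), and their median mean rank was 71.2.

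Around the strongest factor peaks, H4Ac was called more often beside the centre than at it. At the strongest of 10 classes of MyoD peaks, 16.6% of the centres were inside an H4Ac region of cells with MyoD. As the mean of both sides, the share rose to 19.5% at 250 bp and fell to 1.78% at 2000 bp. In cells with Myf5 the same sites gave 12.3% at the centre, 14.1% at 200 bp and 2.24% at 2000 bp. At the strongest class of Myf5 peaks the values were 12.6% at the centre and 13.9% at 200 bp with MyoD, and 9.87% and 10.8% with Myf5. At the weakest class of MyoD peaks the 2 populations were close, at 5.58% and 5.71% of the centres. With MyoD the mean of both sides was highest at the centre itself, and with Myf5 it was highest at 150 bp, at 5.90%. At the weakest class of Myf5 peaks it went from 3.49% at the centre to 3.51% at 100 bp with MyoD. With Myf5 it went from 3.71% to 4.07% there, so a lower share at the centre was not particular to strong sites. Cells with MyoD thus had the higher share at the centre of strong sites and the lower share 2000 bp away. The lower share at 2000 bp was not particular to strong sites. At the weakest class of MyoD peaks it was 1.24% with MyoD and 1.42% with Myf5, and the whole MyoD list covered less length (12.1 against 14.9 Mb).

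**Figure D5:**
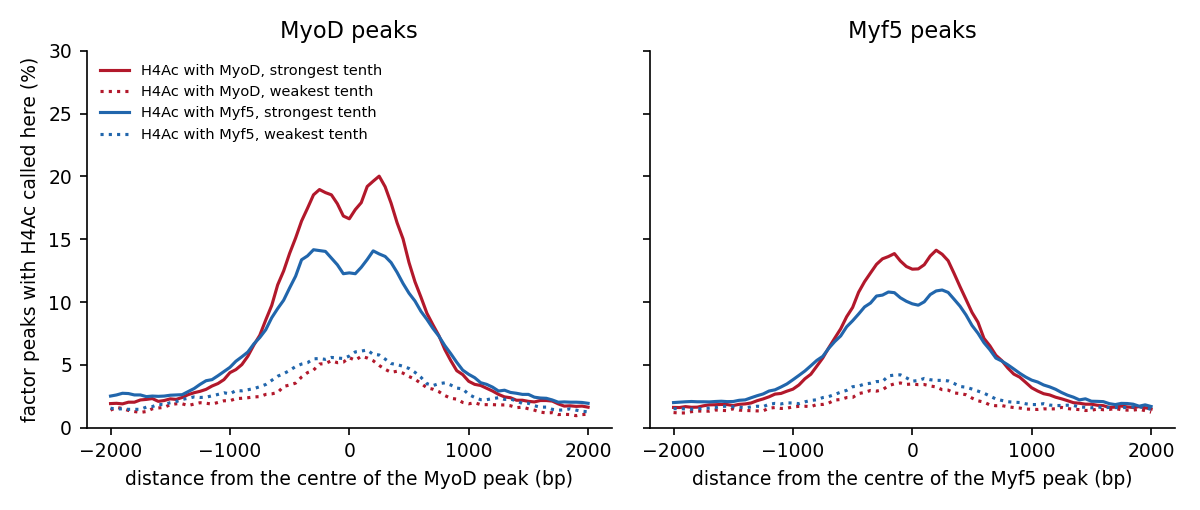
Share of factor peaks with an H4Ac region called at each position (y axis, %), by distance from the centre of the MyoD peak (left) or the Myf5 peak (right) in bp (x axis), in steps of 50 bp. Solid lines are the strongest and dotted lines the weakest of 10 coverage classes, red for cells with MyoD and blue for cells with Myf5. The solid lines dip at the centre, from 19.5% to 16.6% for red and from 14.1% to 12.3% for blue on the left, and red lies above blue near the centre.

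The strongest regions called with MyoD only included 3 at sites of both factors. The first, at chr6:30578428-30579368, reached a coverage of 91 (4.14 times the cutoff), with the nearest Myf5-cell region 6946 bp away. Its factor coverages were 154 for MyoD and 275 for Myf5. The second, at chr13:41345230-41345466, had a coverage of 87 and lay only 235 bp from a Myf5-cell region, with factor coverages of 121 and 216. The third, at chr2:148558301-148558545, had a coverage of 82, factor coverages of 528 and 1187 and its nearest Myf5-cell region 19332 bp away. The fourth, at chr7:53633753-53634390, met a MyoD peak of 169 without a Myf5 peak. The control reached 16 reads there, against a median of 4 in that list, with an authors' control p-value of 1e-05 or lower. The fifth, at chr1:90159202-90159700, had a control coverage of 19, overlapped a mock peak and had no factor peak.

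The strongest regions called with Myf5 only were all in the bin of at most 40% GC. The first, at chr8:20017337-20017857, had an H4Ac coverage of 74, but its control coverage was 31 and it overlapped a mock peak. The next, at chr3:106523659-106524443, had a coverage of 60, a weak Myf5 peak of 55 and a MyoD-cell region 186 bp away. The regions at chr14:32599376-32599983 and at chr2:45603761-45604008 both had a coverage of 58 and MyoD-cell neighbours at 99 and 199 bp. Of these, the one on chromosome 2 carried strong peaks of MyoD (348) and Myf5 (743), and the one on chromosome 14 carried none. The fifth, at chr1:50564084-50564837, had a coverage of 55, no factor peak and its nearest MyoD-cell region 426881 bp away. Of the 5, it was the only one without a mock peak that lay more than 500 bp from H4Ac of the other population.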

How the data were processed

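The deposited lists give, per the file headers, position, width, maximum coverage (signal, whole numbers with no named scaling), a coverage cutoff per GC bin, a p-value, and the coverage and p-value of a control. The deposited control p-values were treated as a score, since some exceed 1, and used only at 1e-05 or lower. The tools BWA 0.7.5 and CASAVA 1.8.2, and as builds hg19 and mm9, appear in the submitters' processing notes. Positions were read as mm9, since H4Ac peaks on chromosome 1 reach 197068081, past the last GRCm38 gene end there (195291439). Which peak caller and H4Ac control were used, and how a factor's 2 replicates became 1 list, is not given in the sources used here. Ranks of coverage over cutoff stayed inside each list, and overlap of 1 bp or more joined the lists, with no test. Alternatives changed the overlap, strength floor, list length, pairing, ranking and GC weighting. Overlap and pairing were tested on 20000 simulated peaks with 3 planted shares, and the largest error was 0 percentage points. The members, classes and rules were chosen with earlier results of these data known. Named regions are the 5 strongest of each class and the 5 largest rank differences each way. The planned gene and E-box counts were not run, for want of a table or genome of this build. Computation used Python 3.11.15 with scipy 1.17.1, numpy 2.4.6 and pandas 2.3.3, and plots used matplotlib 3.10.9.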

Additional observations from a re-analysis of the deposited data

How the results depend on the processing

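Each group had 1 list, so no replicate could be left out, and no call of significance can change. No paired analysis was possible because each group had 1 list and no result comes from a test. No rank correlation, rank difference or GC gap changed sign and no width ratio crossed 1 under any alternative run. Shares cannot change sign, so this says nothing about them, and the order of the 2 whole-list shares turned in lists of equal length. Of all values, 28 stayed within the 95% interval of the reported value, and 52 did not. Values are given in the order MyoD list, Myf5 list. The shares in 1 list only were 29.5% and 28.0% with an overlap of 50% of the shorter peak, 18.6% and 17.8% within 500 bp, 7.42% and 4.54% at 1.5 times the cutoff, and 24.1% and 31.1% in lists of equal length. The shares of regions in 1 list only at a MyoD peak were 38.4% and 11.7% within 500 bp, 55.1% and 16.1% at 1.5 times the cutoff, 39.5% and 14.9% in equal lists, 27.7% and 7.50% for the stronger part of the factor list, and, for Myf5 only, 16.9% GC-weighted. At a Myf5 peak, the regions with Myf5 only gave 24.9% within 500 bp. Both sets gave 69.4% and 31.8% at 1.5 times the cutoff, 55.1% and 29.2% in equal lists, 40.3% and 16.5% for the stronger part of the factor list, 39.7% and 16.0% with factor lists of equal length, and 51.5% and 33.2% GC-weighted. The gap in the lowest GC bin was 26.1 points within 500 bp, 30.7 at 1.5 times the cutoff and 21.3 in equal lists. For pairs of exactly 1 region each, the rank correlation was 0.70, the median rank difference 7.16 points at strong MyoD peaks and -0.15 without a factor peak, and the width ratio 0.848. For joined regions these were 0.715, 5.73, -0.60 and 0.840. In pairs of exactly 1 region each, the 95% interval of the -0.15 points was -0.48 to 0.10, so its sign was not settled. Ranks of coverage gave a correlation of 0.639 and a difference of 2.28 at strong MyoD peaks, ranks within shared regions gave 4.36 there, and ranks within GC bins 4.07, with -2.00 without a factor peak. Added after seeing the data were joined regions, ranks within GC bins and 2 alternatives for the strongest of 10 classes of factor peaks. In equal lists, H4Ac with MyoD only and with Myf5 only was at 13.2% and 1.97% of these MyoD peaks and at 9.26% and 2.19% of these Myf5 peaks. At 1.5 times the cutoff it was at 3.53% and 0.111%, and at 2.22% and 0.171%. The cause of these changes was not tested. Coverage cutoffs and unknown depth limit every share in 1 list only, since a region just under its cutoff is not listed.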

Other observations

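The share of regions in 1 list only differed by chromosome. With MyoD it ran from 25.5% (23.6 to 27.4) on chromosome 6 to 31.8% (29.5 to 34.3) on chromosome 15, the extremes of 20 chromosomes. With Myf5 it ran from 21.6% (19.3 to 24.0) on chromosome 17 to 34.1% (30.3 to 38.2) on the X chromosome. There 198 of 580 regions had no counterpart with MyoD, against 163 of 576 (28.3%, 24.7 to 32.2) the other way. The X regions with Myf5 were also weak and narrow. Their medians were 1.29 times the cutoff and 282.5 bp, against 1.375 times and 373 bp in the whole Myf5 list. The part of strength and width in this share was not tested.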
